A study of Gallus gallus with 8 samples.

Results

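The genes described here encode the machinery that carries newly made proteins into the endoplasmic reticulum (ER) and from there to the Golgi. They were taken by name. A gene belonged to the set where its single symbol in the array's annotation began with one of a list of prefixes for the signal recognition particle (SRP), the translocon and signal peptidase (SRP with a digit, SEC61, SEC62, SEC63, SSR, SEC11), the COPII coat (SAR1, SEC13, SEC16, SEC23, SEC24, SEC31) with the MIA family, the COPI coat and its ARF GTPases (COPA, COPB, COPE, COPG, COPZ, ARF with a digit), cargo receptors (TMED, KDELR), or tethers and SNARE proteins (SEC22, TRAPPC, COG with a digit, GOLGA). The rule found 80 of the 13009 genes on the array. One probe set stands for each gene, the brightest by its mean over all arrays. The members have 180 probe sets in all, 30 members having 1 and 50 having more.

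RNA came from chondrocytes of the chick tibiotarsus growth plate, the cartilage that lengthens the main bone of the lower leg. Proliferative chondrocytes from 3-week-old chicks filled 4 arrays, and hypertrophic chondrocytes from 1-day-old chicks filled the other 4. Cells of both groups were isolated and pooled, and neither was treated. The comparison asks how transcripts differ between the 2 stages, and because stage and age differ together their parts cannot be told apart.

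Proteins with a signal sequence are caught by SRP as they leave the ribosome, threaded through the SEC61 channel and trimmed by signal peptidase. COPII coats then bud carriers from the ER, cargo receptors load them, and COPI coats return receptors and escaped ER residents from the Golgi, while tethers and SNARE proteins dock and fuse the carriers. Growth plate chondrocytes secrete large amounts of collagen II and aggrecan, and fibrillar collagen is too long for a standard COPII vesicle. Mutations of SEC23A and SEC24D in people, and loss of MIA3 (TANGO1) in mice, disturb collagen export and skeletal growth.

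Values are log2 signals, on which a difference of 1 is a doubling, and all differences are hypertrophic minus proliferative with the standard error of the fit. A gene passed the test at an adjusted p below 0.05 (limma, Benjamini-Hochberg over all probe sets). Within each group, array 3 was close to a copy of array 4. The SD of the difference between these arrays over 5344 bright probe sets was 0.175 (proliferative) and 0.194 (hypertrophic), while the remaining pairs within a group gave 0.365 to 0.958. Calls are therefore given on all 8 arrays and again with arrays 3 and 4 of a group averaged, which leaves 3 samples per group. The labels do not state whether the arrays stem from separate birds or pools, so p-values measure a spread that may be technical. In these pooled cells, fewer cells of a type and less RNA per cell cannot be told apart.

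The labels were checked against marker genes. Of 8 chondrocyte markers, 1 fell (MATN3, by 0.49 ± 0.12) and none rose. COL2A1, the cartilage collagen, averaged 14.66 in proliferative and 14.47 in hypertrophic cells. MATN1 had a larger difference in the other direction, 1.15 ± 0.32, that did not pass (adjusted p = 0.0627). Of 6 hypertrophic markers, SPP1 and MMP13 rose. IBSP (2.62 ± 0.71, adjusted p = 0.0539), ALPL (0.28 ± 0.25) and IHH (-0.43 ± 0.29) did not pass, and the estimate for IHH was below 0. Some proliferative arrays carried high levels of hypertrophic markers. Collagen X (COL10A1), the defining collagen of hypertrophy, measured 11.99, 13.42, 14.14 and 14.07 on proliferative arrays 1 to 4 and 13.89, 13.74, 14.32 and 14.29 on hypertrophic arrays 1 to 4. Proliferative arrays 3 and 4 thus lay above hypertrophic arrays 1 and 2, and the difference of 0.66 ± 0.43 did not pass. MMP13 measured 4.19, 5.88, 8.73 and 8.56 on proliferative arrays and 9.33 to 11.58 on hypertrophic arrays, again with proliferative arrays 3 and 4 nearer to the hypertrophic group. The summed hypertrophic signal (log2) was 12.64, 13.97, 14.57 and 14.54 on proliferative arrays and 14.90 to 15.76 on hypertrophic arrays. Of 4 cycling markers, 3 fell. Markers of other cell types moved as well, with 3 of 10 endothelial genes (CDH5, TEK, VWF) and 2 of 6 osteoclast genes higher, and 1 of 7 leukocyte genes higher and 1 lower. None of 3 red cell genes and none of 6 bone and fibroblast genes passed. The other endothelial genes did not pass. Their differences were 0.88 for TIE1, 0.60 for PECAM1, 0.11 for KDR, 0.0073 for ESAM, -0.03 for EMCN, -0.07 for ERG and -0.43 for CLDN5. The summed endothelial signal ran from 9.49 to 9.88 (log2) on proliferative and from 10.08 to 10.36 on hypertrophic arrays. The osteoclast sum ran from 9.36 to 9.63 and from 9.88 to 11.36, and the leukocyte sum from 7.98 to 8.40 and from 8.65 to 10.38, both with their highest value on hypertrophic array 1 and the next on array 2. The bone and fibroblast sum ran from 12.27 to 12.50 on proliferative arrays and was 12.87 on hypertrophic arrays 1 and 2 and 11.58 and 11.61 on arrays 3 and 4. The osteoclast genes that rose were ATP6V0D2 (2.88 ± 0.38) and TNFRSF11A (0.49 ± 0.11). Of leukocyte genes, CD74 rose (1.66 ± 0.43) and CD3E fell (-0.47 ± 0.10). CTSK, LCP1 and SPI1 did not pass, with differences of 1.08, 1.84 and 0.95 and hypertrophic arrays all above proliferative ones. CSF1R and CD79B had differences of 0.17 and -0.18. PTPRC averaged 4.01 and 4.21 and CALCR 3.52 in both groups. These 2, DCSTAMP, OCSTAMP and the endothelial genes EMCN and KDR had both group means under the background level of 4.75, so differences there could not be measured well. The 3′ minus 5′ difference of the actin control ran from 0.86 to 1.90 in proliferative and from 0.86 to 1.58 in hypertrophic cells (exact permutation test, two-sided, p = 0.6). For GAPDH the range was -0.53 to -0.34 against -0.45 to -0.06 (exact permutation test, two-sided, p = 0.229). Both tests count arrays 3 and 4 of a group as separate. The part of other cell types and of RNA quality in the results below was not tested.

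Secretory genes were lower in hypertrophic than in proliferative chondrocytes where they differed. Of the 80 members, 12 fell, none rose and 68 did not pass. That is 15.0% lower, against 5.6% of all genes lower and 7.34% higher. At an unadjusted p below 0.05, 35 members were lower and 2 higher, against 14% and 15.9% of all genes. The genes that fell were SEC23A, SEC31A and SAR1B of the COPII coat, SRP68 of the SRP, COPB1 and ARF1 of the COPI system, the cargo receptor TMED2, and GOLGA2, GOLGA3, GOLGA5, COG3 and SEC22A among tethers and SNARE proteins. Their differences ran from -0.99 to -0.45, which is 1.98-fold to 1.37-fold lower.

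The median difference over the 80 members was -0.33, against -0.01 over all genes, and 65 members (81.2%) had a difference below 0, against 52.2% of all genes. Members are brighter than most genes on the array, with 60 of 80 having a mean above 8. Among the 3522 genes above 8, 10.5% fell and 8.21% rose, and their median difference was -0.04. Of the 60 members above 8, 11 fell (18.3%) and their median difference was -0.37. In 21 members all 4 hypertrophic arrays lay below all 4 proliferative arrays (26.2%, against 9.67% of all genes). Among members above 8 that share was 33.3%, against 16.7% of genes above 8. In 1 member, SEC61B, the hypertrophic arrays all lay above (against 10.6% of all genes). Its estimate was nevertheless below 0 with ribosomal centring or with the mean of its probe sets.

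How many genes passed depended on arrays 3 and 4 and on hypertrophic array 1. With arrays 3 and 4 averaged, SEC23A and GOLGA2 remained lower (adjusted p = 0.0360 for each), and no member rose, against 1.24% of all genes lower and 2.01% higher. Without hypertrophic array 1, 24 members were lower, against 7.23% of all genes. These included all 12 found on 8 arrays. Leaving out any other single array gave between 4 and 12 lower members, 4 without proliferative array 3 or 4, 5 and 6 without hypertrophic arrays 4 and 3, 6 without proliferative array 1 and 7 without hypertrophic array 2. For the fits without these other arrays the share of all genes passing was not computed, so their counts cannot be set beside it. SEC23A, GOLGA2, GOLGA3 and COG3 passed in all 8 fits that left out 1 array.

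**Figure D1:**
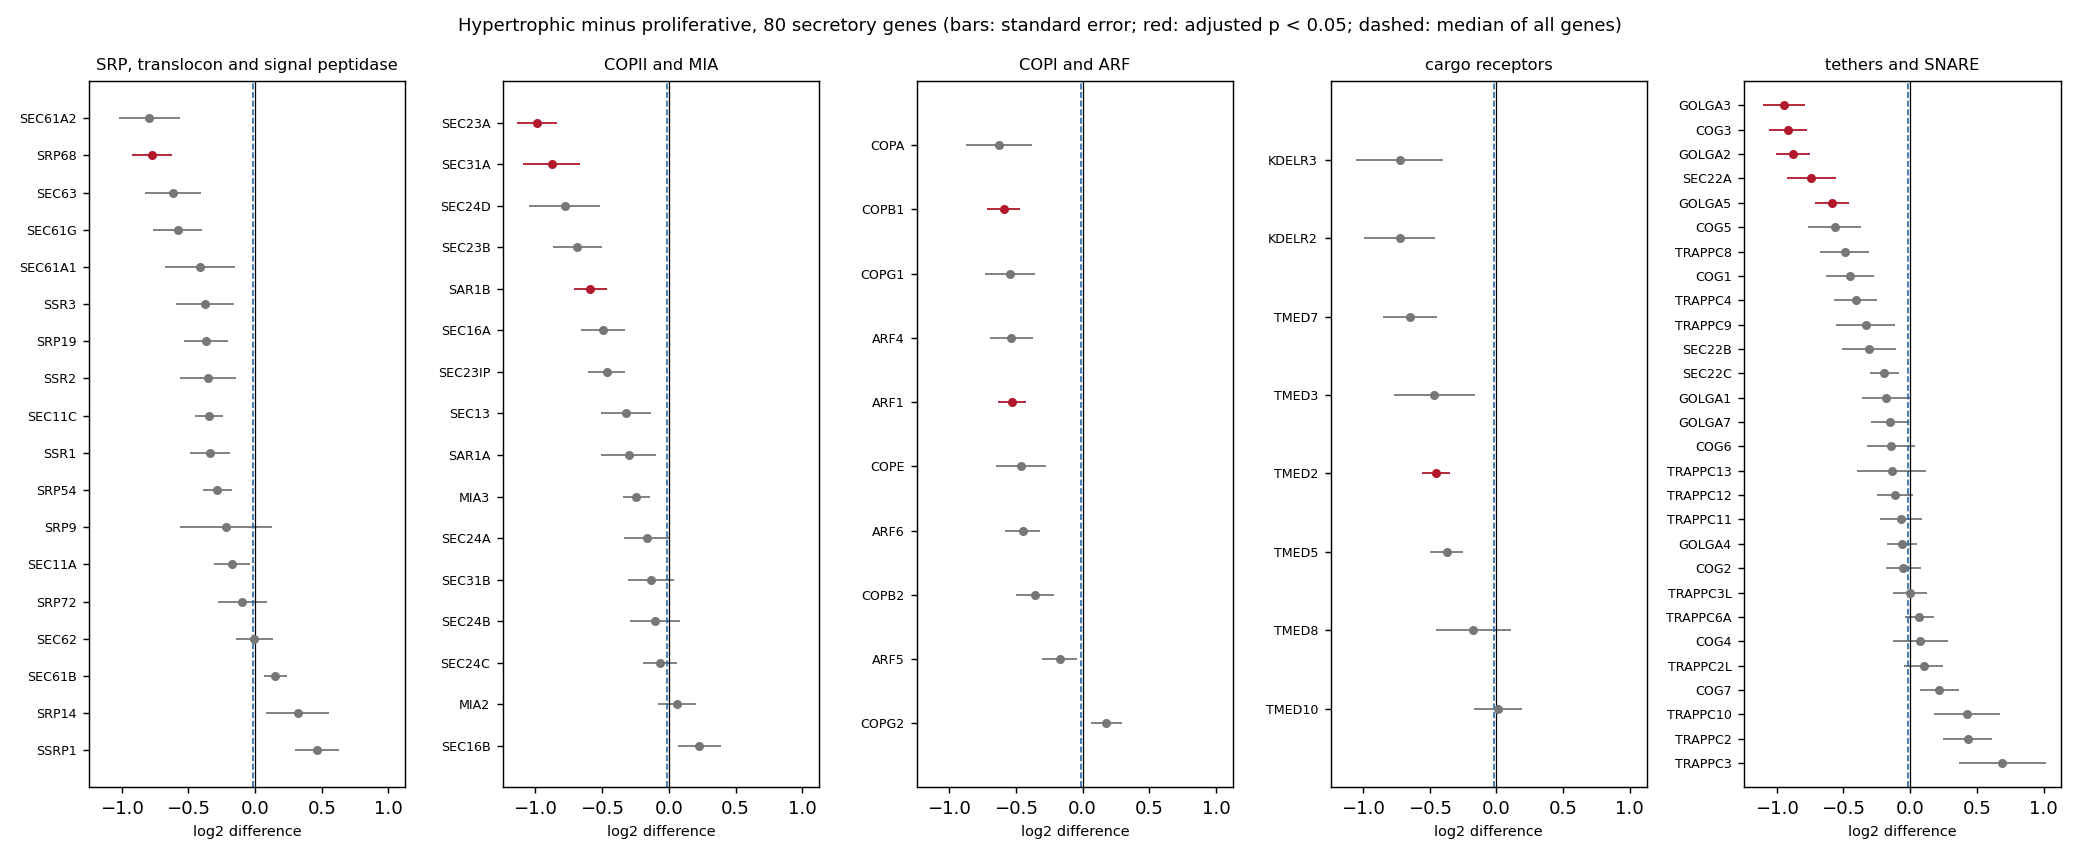
Log2 difference (hypertrophic minus proliferative) of each of the 80 secretory genes, in 5 panels by role, with points for the estimate, bars for its standard error (n = 4 arrays per group) and red for the 12 genes past the test. The dashed line is the median of all genes (-0.01), and 65 of the 80 points lie below 0.

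Entry into the ER was covered by 18 members, of which 1 fell (5.56%) and 17 did not pass. That share is no higher than the 5.6% of all genes, or the 10.5% of genes with a mean above 8. The median difference of the 18 members was -0.34, and 15 were below 0. SRP68, a protein of the SRP core that binds its RNA together with SRP72, measured 9.19, 9.53, 9.40 and 9.44 on proliferative arrays 1 to 4 and 8.35, 8.44, 8.87 and 8.82 on hypertrophic arrays 1 to 4. All hypertrophic arrays lay below all proliferative ones, with arrays 1 and 2 lowest. SRP68 fell by 0.77 ± 0.15 (adjusted p = 0.0152, and 0.0732 with arrays 3 and 4 averaged; 0.0512 without either proliferative array 3 or 4). Its second probe set fell as well, by 0.54 ± 0.14 (adjusted p = 0.0431). The partner SRP72 had a difference of -0.10 ± 0.18, SRP54, the GTPase that recognises the signal sequence, -0.28 ± 0.11 (adjusted p = 0.173), and SRP19 -0.37 ± 0.17.

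Among translocon genes the subunits did not move alike in their estimates. SEC61A2, a second form of the channel's pore subunit, measured 9.34 to 9.54 on proliferative and 9.15, 9.01, 8.14 and 8.25 on hypertrophic arrays 1 to 4. The groups did not overlap, but hypertrophic arrays 3 and 4 were far below arrays 1 and 2, and the difference of -0.79 ± 0.23 did not pass (adjusted p = 0.0689, and 0.0171 without hypertrophic array 1). The main pore subunit SEC61A1 had a difference of -0.41 ± 0.26, with a 95% interval from -1.01 to 0.18. SEC61B, the small beta subunit and the brightest member of this group, measured 13.69 to 13.78 on proliferative and 13.82 to 13.92 on hypertrophic arrays. Its groups did not overlap, yet the difference of 0.15 ± 0.09 did not pass (adjusted p = 0.355), and its other 2 bright probe sets disagreed, with differences of -0.49 and 0.29. SEC61G, the gamma subunit, had a difference of -0.58 ± 0.18 (adjusted p = 0.0910, and 0.0356 without hypertrophic array 1). SEC62 and SEC63 assist the channel after translation, and their differences were -0.0042 ± 0.14 and -0.61 ± 0.21. The measured subunits of the translocon-associated complex, SSR1, SSR2 and SSR3, had differences of -0.33, -0.35 and -0.37, none of which passed. SEC11C, a catalytic subunit of signal peptidase, had non-overlapping groups and a difference of -0.34 ± 0.11 (adjusted p = 0.0859), against -0.17 ± 0.13 for the other catalytic subunit, SEC11A. SSRP1 entered the list through its prefix but is a histone chaperone, not a secretory protein. It had the highest difference of this group, 0.46 ± 0.17 (adjusted p = 0.131).

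Budding from the ER was covered by 16 members, with a median difference of -0.31. Of these, 3 fell (18.75%, against 5.6% of all genes and 10.5% of genes above 8) and 13 did not pass. SEC23A, the inner coat subunit that speeds GTP hydrolysis by SAR1, measured 9.95, 9.71, 10.39 and 9.97 on proliferative and 9.03, 9.01, 9.15 and 8.89 on hypertrophic arrays 1 to 4. The 4 hypertrophic arrays lay close together and all below the proliferative ones. SEC23A fell by 0.99 ± 0.15, or 1.98-fold, the largest fall among the members on their brightest probe sets (adjusted p = 0.00543, and 0.0360 with arrays 3 and 4 averaged). It also fell in 3 of its other 4 probe sets, with differences of -1.06, -1.16 and -1.001.

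SEC31A, of the outer coat cage, measured 10.77, 10.39, 10.92 and 10.91 in proliferative and 10.20, 10.22, 9.59 and 9.46 in hypertrophic cells. The groups were apart, with hypertrophic arrays 3 and 4 lowest. SEC31A fell by 0.88 ± 0.21 (adjusted p = 0.0346, and 0.204 with arrays 3 and 4 averaged). Its adjusted p was 0.0820 to 0.105 without any one of proliferative arrays 1, 3 and 4 or hypertrophic arrays 3 and 4. SAR1B, the GTPase that starts coat assembly, measured 11.07, 10.89, 11.05 and 10.91 against 10.66, 10.40, 10.31 and 10.21. Hypertrophic array 1 was the nearest to the proliferative group, without overlap. SAR1B fell by 0.59 ± 0.12 (adjusted p = 0.0203, and 0.130 with arrays 3 and 4 averaged; 0.0515 to 0.0671 without any one array other than proliferative array 2 or hypertrophic array 1). The partner SAR1A had a difference of -0.30 ± 0.20 (adjusted p = 0.453).

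SEC23B and SEC23IP came closest to the threshold among the other COPII genes. SEC23B, a second form of the inner coat subunit, measured 10.11 to 10.51 on proliferative and 9.95, 9.89, 9.20 and 9.36 on hypertrophic arrays. It had a difference of -0.68 ± 0.19 (adjusted p = 0.0560, and 0.0216 without hypertrophic array 1). Its other probe set disagreed, with a difference of 0.24 ± 0.16 (adjusted p = 0.445). With the mean of its probe sets the difference was -0.22 (adjusted p = 0.228). SEC23IP, which binds SEC23 at ER exit sites, had a difference of -0.47 ± 0.14 (adjusted p = 0.0731). On their brightest probe sets, SEC23B and SEC23IP had groups that did not overlap. SEC16A, a scaffold of ER exit sites, had a difference of -0.49 ± 0.17 and its relative SEC16B of 0.23 ± 0.16. Both are dim, with means of 5.36. SEC13, the brightest COPII gene, which is shared with the nuclear pore, had a difference of -0.32 ± 0.19 (adjusted p = 0.379).

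The 4 SEC24 genes, whose products pick the cargo, had unequal estimates on their brightest probe sets. SEC24D measured 11.61, 11.30, 11.39 and 11.30 on proliferative and 11.26, 10.99, 9.97 and 10.26 on hypertrophic arrays. Its difference was -0.78 ± 0.27 and missed the threshold (adjusted p = 0.115, and 0.0232 without hypertrophic array 1). Hypertrophic arrays 3 and 4 were about 1 log2 unit below arrays 1 and 2, and the groups did not overlap. All 4 of its other probe sets fell, with differences of -1.06, -1.37, -1.75 and -1.75 (adjusted p = 0.0353, 0.0118, 0.0227 and 0.0371). With the mean of a gene's probe sets, SEC24D had a difference of -1.34 (adjusted p = 0.0145), against -0.92 for SEC23A. SEC24A, SEC24B and SEC24C had differences of -0.16 ± 0.17, -0.10 ± 0.18 and -0.07 ± 0.13, and the 95% interval of SEC24C ran from -0.35 to 0.22. A second probe set of SEC24A fell by 0.77 ± 0.16 (adjusted p = 0.0191). MIA3, the receptor that packs procollagen into large carriers, had non-overlapping groups and a difference of -0.24 ± 0.10, with a 95% interval from -0.47 to -0.01 (adjusted p = 0.199). Of its 6 other probe sets, 1 fell, by 0.86 ± 0.22 (adjusted p = 0.0469). MIA2, its relative at the same sites, had a difference of 0.06 ± 0.14.

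Cargo receptors numbered 8, with a median difference of -0.46. Of these, 1 fell (12.5%, against 5.6% of all genes and 10.5% of genes above 8) and 7 did not pass. TMED2, a p24 protein that cycles between ER and Golgi and helps load cargo, measured 12.89, 12.61, 12.82 and 12.77 in proliferative and 12.42, 12.39, 12.23 and 12.25 in hypertrophic cells. The groups were apart, by 0.19 between the nearest arrays. TMED2 fell by 0.45 ± 0.10 (adjusted p = 0.0296, and 0.182 with arrays 3 and 4 averaged; 0.0591 to 0.0905 without any one array other than proliferative array 2 or hypertrophic array 1). TMED10, which forms complexes with TMED2, had a difference of 0.01 ± 0.18, with a 95% interval from -0.39 to 0.42.

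KDELR2 and KDELR3 return ER chaperones that carry the KDEL signal. KDELR2, the brightest receptor gene, measured 13.30, 13.07, 13.39 and 13.28 in proliferative and 13.18, 12.91, 12.06 and 11.99 in hypertrophic cells. Hypertrophic array 1 lay within the proliferative range, array 2 just below it, and arrays 3 and 4 about 1 unit lower. Its difference of -0.72 ± 0.26 did not pass on 8 arrays (adjusted p = 0.138) and did without hypertrophic array 1 (adjusted p = 0.0260). KDELR3 had almost the same difference, -0.73 ± 0.32, with 11.20 and 10.94 on hypertrophic arrays 1 and 2 and 9.75 and 9.80 on arrays 3 and 4 (adjusted p = 0.228). TMED7 and TMED5, further p24 proteins, had differences of -0.65 ± 0.20 (adjusted p = 0.0838) and -0.37 ± 0.12 (adjusted p = 0.102). TMED5 had groups that did not overlap, and TMED7 passed without hypertrophic array 1 (adjusted p = 0.0118).

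Retrieval by COPI was covered by 10 members, of which 2 fell and 8 did not pass. For comparison, 5.6% of all genes and 10.5% of genes with a mean above 8 fell. The median difference of the 10 members was -0.50, and 9 of the 10 were below 0. COPB1, a beta subunit of the coat, measured 11.94, 11.76, 12.04 and 11.98 in proliferative and 11.62, 11.19, 11.27 and 11.25 in hypertrophic cells. Hypertrophic array 1 stood above the other 3 but below every proliferative array. COPB1 fell by 0.59 ± 0.12 (adjusted p = 0.0218, and 0.154 with arrays 3 and 4 averaged; 0.0565 to 0.0730 without any one array other than proliferative array 2 or hypertrophic array 1). A second probe set fell by 0.75 ± 0.13.

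ARF1, the GTPase that recruits the COPI coat to Golgi membranes, measured 12.54, 12.56, 12.83 and 12.70 against 12.21, 12.04, 12.19 and 12.07. The 4 hypertrophic arrays spanned 0.16 units and below the proliferative group. ARF1, the brightest of this group, fell by 0.53 ± 0.11 (adjusted p = 0.0177, and 0.117 with arrays 3 and 4 averaged; 0.0520 to 0.0595 without any one of proliferative arrays 3 and 4 or hypertrophic arrays 2 and 4). ARF6, which acts mostly at the plasma membrane, and ARF4 came nearest to the threshold, with differences of -0.45 ± 0.13 (adjusted p = 0.0721) and -0.53 ± 0.16 (adjusted p = 0.0808). The coat subunits COPA, COPG1, COPE and COPB2 had differences of -0.63, -0.54, -0.46 and -0.35 that did not pass. COPA measured 11.12 and 11.00 on hypertrophic arrays 1 and 2 and 10.05 and 10.11 on arrays 3 and 4, against 11.11 to 11.29 on proliferative arrays. COPG2, the second gamma subunit, was the 1 gene of this group with a difference above 0, at 0.18 ± 0.12 (adjusted p = 0.436).

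Tethers and SNARE proteins numbered 28, with a median difference of -0.15. Of these, 5 fell (17.86%, against 5.6% of all genes and 10.5% of genes above 8) and 23 did not pass. The falls were in golgins, in 1 subunit of the COG tether and in 1 SNARE-like gene. GOLGA2 (GM130), a golgin of the cis face that binds the tether USO1, measured 9.07, 8.95, 8.83 and 8.81 in proliferative and 7.80, 8.17, 7.95 and 8.24 in hypertrophic cells. The nearest arrays of the groups were 0.57 apart. GOLGA2 fell by 0.88 ± 0.13 (adjusted p = 0.00459, and 0.0360 with arrays 3 and 4 averaged). GOLGA3 (golgin-160) measured 9.02, 8.85, 9.19 and 9.16 against 8.28, 8.40, 7.75 and 8.00. Its hypertrophic arrays all lay below the proliferative ones, arrays 3 and 4 lowest. GOLGA3 fell by 0.94 ± 0.16 (adjusted p = 0.00874, and 0.0766 with arrays 3 and 4 averaged).

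GOLGA5 (golgin-84), a membrane-anchored golgin, measured 8.80, 8.47, 8.90 and 8.87 in proliferative and 8.03, 8.31, 8.10 and 8.25 in hypertrophic cells. Proliferative array 2 was the nearest to the hypertrophic group, without overlap. GOLGA5 fell by 0.59 ± 0.13 (adjusted p = 0.0242, and 0.148 with arrays 3 and 4 averaged). Without any one of proliferative arrays 1, 3 and 4 or hypertrophic arrays 3 and 4 its adjusted p was 0.0534 to 0.0785. The other golgins had smaller estimates, -0.18 ± 0.18 for GOLGA1, -0.15 ± 0.14 for GOLGA7, which is known as a partner of a palmitoyltransferase, and -0.06 ± 0.11 for GOLGA4, whose 95% interval ran from -0.32 to 0.19.

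COG3, a subunit of the first lobe of the COG tether for vesicles moving within the Golgi, measured 6.51, 6.18, 6.64 and 6.65 against 5.67, 5.66, 5.67 and 5.32. Hypertrophic arrays 1 to 3 were alike and array 4 lower, all below the proliferative group. COG3 fell by 0.91 ± 0.14 (adjusted p = 0.00622, and 0.0542 with arrays 3 and 4 averaged). The other COG subunits measured did not pass. Their differences were -0.57 ± 0.20 for COG5 (adjusted p = 0.126), -0.45 for COG1, -0.14 for COG6, -0.05 for COG2, 0.07 for COG4 and 0.22 for COG7. SEC22A, a relative of the ER SNARE SEC22B, measured 9.995, 9.66, 10.28 and 10.30 in proliferative and 9.63, 9.42, 9.17 and 9.04 in hypertrophic cells. The lowest proliferative and the highest hypertrophic array were only 0.02 apart. SEC22A fell by 0.74 ± 0.18 (adjusted p = 0.0387, and 0.226 with arrays 3 and 4 averaged; 0.0758 to 0.115 without any one array other than proliferative array 2 or hypertrophic array 1). SEC22B itself, the brightest of the tethers and SNARE proteins, had a difference of -0.31 ± 0.20 (adjusted p = 0.436).

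No TRAPP gene passed. TRAPP is a tether and exchange factor for Rab GTPases, and its 12 measured genes had differences from -0.49 for TRAPPC8 (adjusted p = 0.142) to 0.69 for TRAPPC3. TRAPPC2, mutated in a human spondyloepiphyseal dysplasia and known to act in procollagen export, had a difference of 0.43 ± 0.18 (adjusted p = 0.201). TRAPPC3 measured 8.61, 8.34, 8.50 and 8.30 in proliferative and 10.14, 9.28, 8.47 and 8.61 in hypertrophic cells. Hypertrophic arrays 1 and 2 stood well above the proliferative range and arrays 3 and 4 level with it, and the difference of 0.69 ± 0.33 did not pass (adjusted p = 0.256). TRAPPC3L, TRAPPC6A and SEC22C had both group means under the background level of 4.75, and TRAPPC9 had 1, so differences there could not be measured well.

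**Figure D2:**
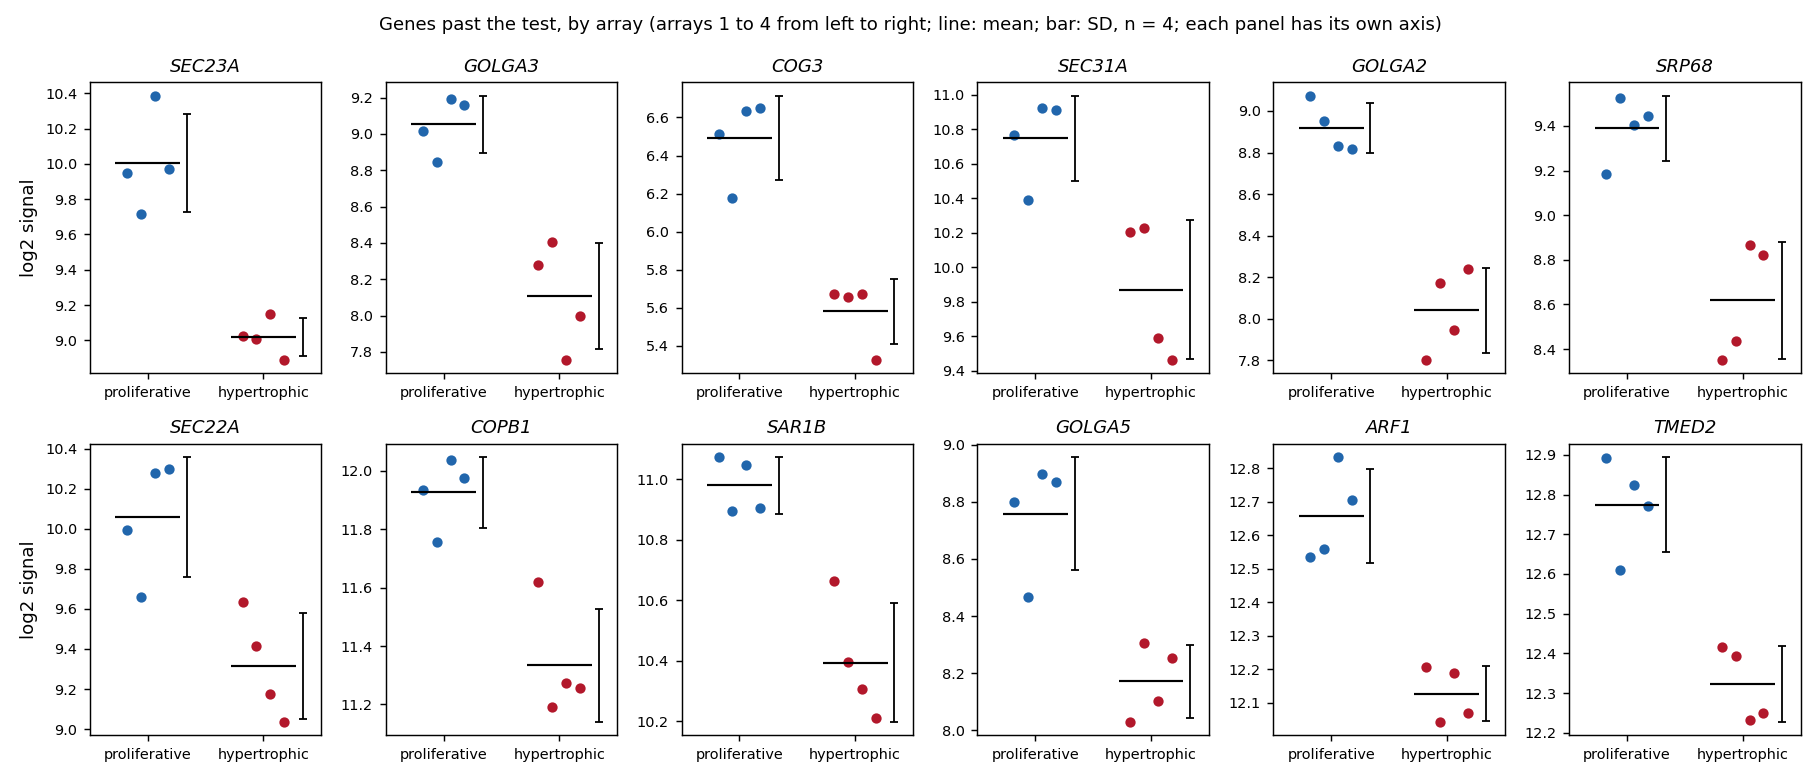
Log2 signal on each array for the 12 genes past the test, proliferative in blue and hypertrophic in red, arrays 1 to 4 from left to right, with a line for the mean and a bar for the SD (n = 4 arrays); each panel has its own axis, which does not start at 0. In every panel all hypertrophic points lie below all proliferative points, and in SEC22A the nearest points almost meet.

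The hypertrophic arrays did not share one level. The following counts were chosen after the values were seen. Relative to the proliferative mean of each gene, the median member stood at -0.15 and -0.20 on hypertrophic arrays 1 and 2 and at -0.47 and -0.46 on arrays 3 and 4. For all genes the same medians were 0.02, 0.01, -0.05 and -0.06. Both of arrays 3 and 4 lay below all proliferative arrays in 50 of 80 members (62.5%, against 25.0% of all genes). Both of arrays 1 and 2 did so in 25 members (31.2%, against 16.6%). Members are brighter than most genes, and neither these shares nor the array orders below were counted for genes with a mean above 8.

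Arrays 1 and 2 both lay above arrays 3 and 4 in 43 members (53.8%, against 35.0% of all genes). Cargo receptors had the widest step, with medians of -0.11 and -0.28 on arrays 1 and 2 and -0.83 and -0.68 on arrays 3 and 4. COPI genes went from -0.11 and -0.31 to -0.62 and -0.63, and COPII genes from -0.25 and -0.35 to -0.66 and -0.56. Tethers and SNARE proteins had medians of -0.15, -0.06, -0.22 and -0.26. Markers of other cells differed between the same arrays. The osteoclast sum was 11.36 and 11.01 on arrays 1 and 2 and 9.88 and 9.996 on arrays 3 and 4, and the bone collagen COL1A1 was 12.66 and 12.62 against 11.04 and 11.15. The cycling sum was 10.86 and 10.54 against 9.95 and 9.79, and the hypertrophic marker sum was 14.90 and 15.32 against 15.76 and 15.74. The 3′ minus 5′ difference of actin was 1.58 and 1.35 against 0.86 and 1.06. For GAPDH it was -0.06 and -0.37 against -0.435 and -0.45. On proliferative arrays, actin gave 1.90 and 1.80 against 0.97 and 0.86, and GAPDH -0.53 and -0.34 against -0.47 and -0.49. The part of these markers and of RNA quality in the step was not tested. In 10 members (12.5%, against 25.2% of all genes) the order was the opposite, with arrays 1 and 2 both below arrays 3 and 4. They were SEC24A, SEC24B, SRP68, SEC63, SEC62, SEC61B, SRP14, TRAPPC8, COG6 and TRAPPC13. Arrays 3 and 4 of a group being nearly identical, this step compares 3 separable hypertrophic samples at most. The spread among hypertrophic arrays exceeded that among proliferative arrays in 59 members (73.8%) and in 63.8% of all genes. Among genes with a mean above 8 the shares lay closer, at 76.7% of members and 72.6% of all such genes.

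**Figure D3:**
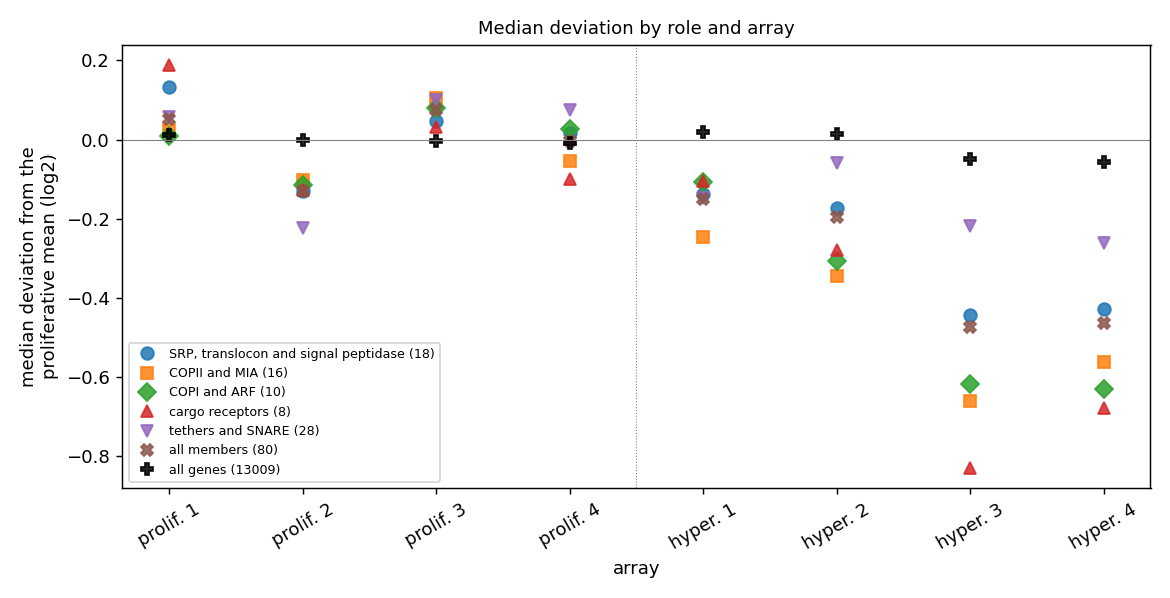
Median deviation of each role group from the proliferative mean of its genes (log2) on each of the 8 arrays, with the 80 members and all 13009 genes for comparison; the number of genes stands in the key. Medians of all genes stay between -0.06 and 0.02, while cargo receptors stand at -0.83 and -0.68 on hypertrophic arrays 3 and 4.

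**Figure D4:**
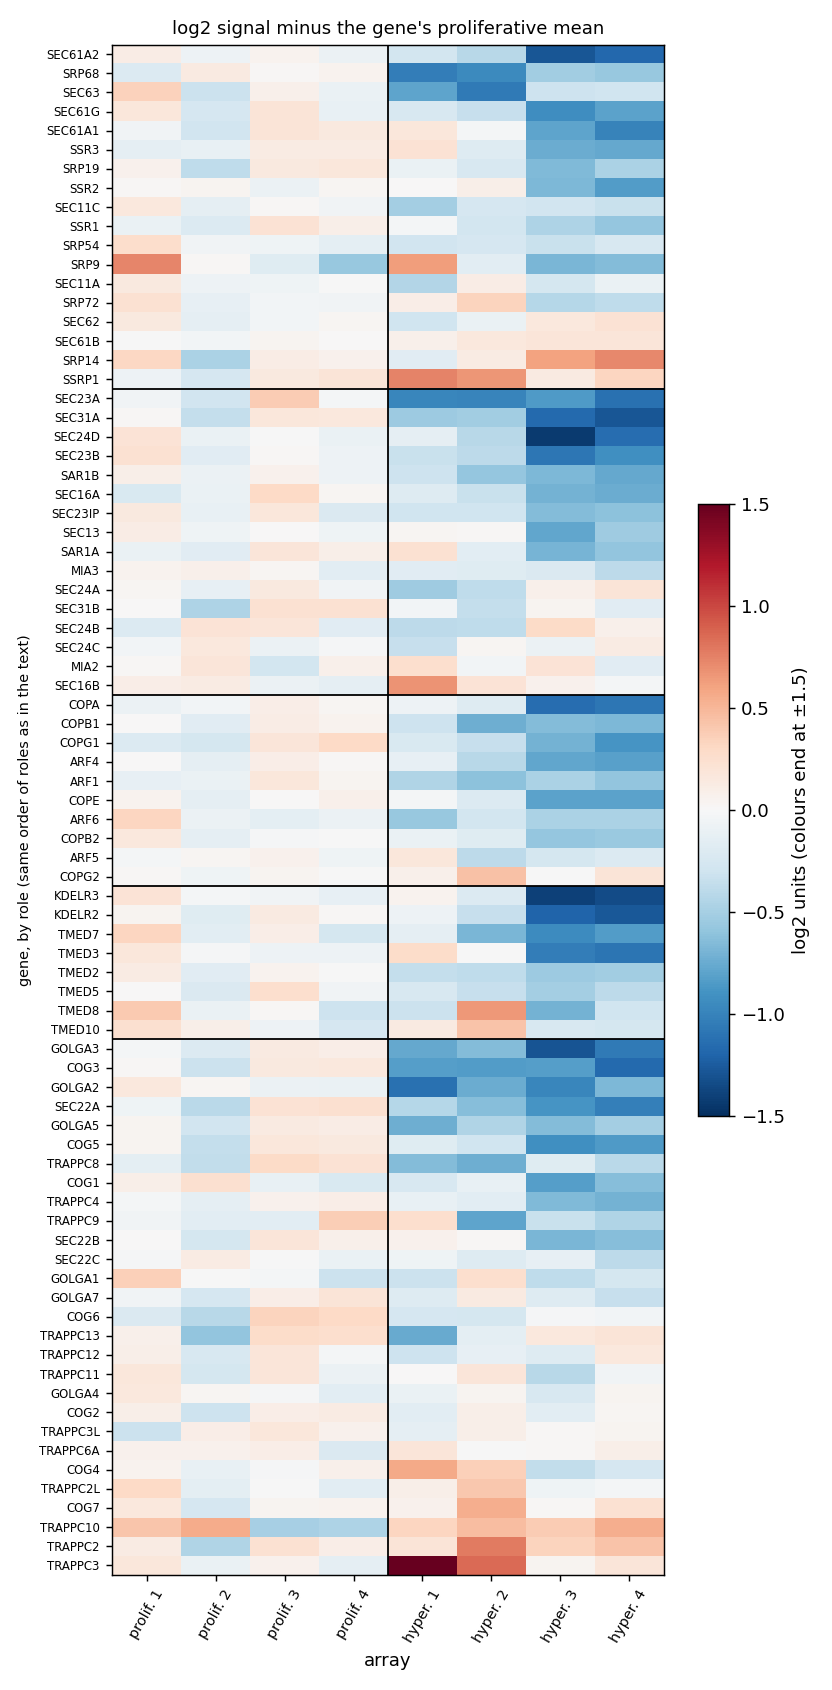
Log2 signal minus the proliferative mean for each of the 80 genes (lines, by role) on each array (columns), blue for lower and red for higher, with colours ending at 1.5 units either way. Blue is deepest on hypertrophic arrays 3 and 4, and TRAPPC3 on hypertrophic array 1 lies past the red end of the scale.

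The probe set chosen for a gene affected which genes passed. Of all 180 member probe sets, 29 were lower and none higher, against 4.27% lower and 4.49% higher of all 38439 probe sets. Among the 100 that did not represent their gene, 17 were lower. Of the 12 genes that fell, 9 had another probe set, and in 8 of these another one fell as well, the exception being SEC22A. In 4 genes another probe set fell although the representative did not pass, namely SEC24D, SEC24A, MIA3 and TRAPPC10. TRAPPC10, a TRAPP subunit of the later Golgi complex, had probe sets that disagreed. Its brightest had a difference of 0.43 ± 0.25 (adjusted p = 0.366), and a dimmer one fell by 0.73 ± 0.15 (adjusted p = 0.0186). Only 61 of the 100 other probe sets had both group means above the background level.

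**Figure D5:**
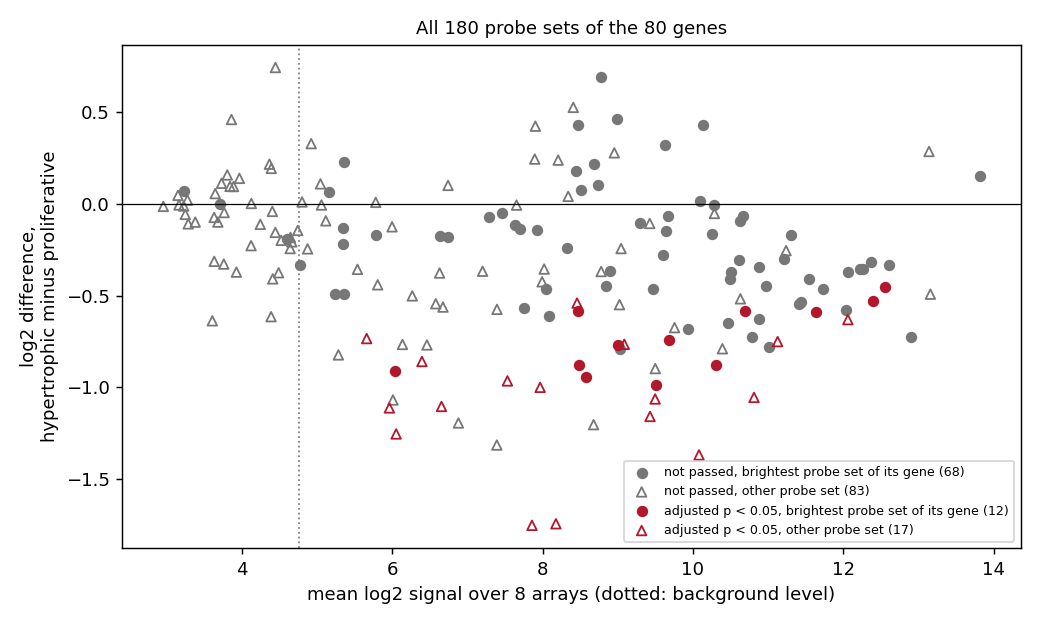
Log2 difference (hypertrophic minus proliferative) against mean log2 signal over the 8 arrays for all 180 probe sets of the members, filled for the brightest probe set of a gene, open for the others and red for those past the test; the dotted line is the background level of 4.75. All 29 red points lie below 0, 17 of them open.

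Paralogues with related roles were compared through the difference between the 2 genes on each array. The 14 pairs were chosen after the values were seen, and with 4 arrays against 4 the smallest possible p is 0.0286 (exact permutation test, two-sided). This test counts arrays 3 and 4 of a group as separate although they are nearly identical, so its p-values may be too small. It was not repeated with them averaged. For SEC31A against SEC31B the difference of differences was -0.75 ± 0.25. For SEC16A against SEC16B it was -0.72 ± 0.18 and for COPG1 against COPG2 -0.72 ± 0.20. These 3 pairs reached the smallest exact p of 0.0286, and after adjustment over the 14 pairs the exact p was 0.133. With that smallest p, 3 pairs alone could not have passed after adjustment. The test therefore cannot decide whether the paralogues differ, and the values are a description only. SEC31B, SEC16A and SEC16B are dim, with means of 5.34, 5.36 and 5.36. The other COPG1 probe sets had differences of -0.26 and -0.52, and the other COPG2 probe set 0.04. SEC24D against SEC24C gave -0.71 ± 0.38 (exact p = 0.143), SEC23A against SEC23B -0.30 ± 0.24 (exact p = 0.257), and KDELR2 against KDELR3 0.0008 ± 0.13 (exact p = 1.0).

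Other genes of the same route, which the prefixes do not reach, were taken from a list of 97, of which 78 were measured. Of these, 14 fell (17.9%), 3 rose (3.85%) and 61 did not pass, against 5.6% and 7.34% of all genes, and their median difference was -0.27. Many of the 78 are bright, and among all genes with a mean above 8, 10.5% fell and 8.21% rose. Pathway genes above 8 were not counted apart. With arrays 3 and 4 averaged, 4 of the 78 were still lower, namely GOLIM4, GOLPH3, RINT1 and TRIP11, and none was higher. These 4, GOSR2 and BCAP29 passed in all 8 fits that left out 1 array, and each of the other 11 lost its call in at least 1. USE1 passed in 1 of these fits, and GBF1, GOLT1B, PDCD6, SRPRA and XBP1 in 2. LMAN1L and MAGT1 passed in 3, YIPF4 in 4, YIPF5 in 5 and YIPF6 in 7. GOLIM4, a Golgi membrane protein that cycles to endosomes, measured 9.87, 9.66, 9.67 and 9.54 in proliferative and 8.19, 8.01, 8.04 and 8.11 in hypertrophic cells. The groups were over 1 unit apart, and the difference was -1.60 ± 0.11 (adjusted p = 2.17e-04, and 0.00726 with arrays 3 and 4 averaged).

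TRIP11 (GMAP-210), a golgin whose loss causes a lethal human chondrodysplasia, fell by 0.91 ± 0.13 (adjusted p = 0.00444). GOLPH3, which links Golgi membranes to actin, fell by 0.86 ± 0.11. RINT1, of an ER tether for COPI carriers, fell by 0.97 ± 0.13, and GOSR2, a SNARE of ER to Golgi fusion, fell by 0.70 ± 0.12. YIPF4, YIPF5 and YIPF6, a family of Golgi membrane proteins, fell, with differences of -0.71, -0.59 and -0.99. GBF1, the exchange factor that activates ARF1 at the cis-Golgi, fell by 0.87 ± 0.19 (adjusted p = 0.0231). GOLT1B, a Golgi transport protein, fell by 0.63. Another probe set fell as well for GOLIM4, GOSR2, YIPF5 and YIPF6. No other probe set of TRIP11, RINT1, YIPF4, GBF1 or GOLT1B passed.

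At the ER side, SRPRA, the docking receptor for SRP, fell by 0.78 ± 0.20 (adjusted p = 0.0425), MAGT1, of the oligosaccharyltransferase, fell by 0.50, and PDCD6 (ALG-2), a calcium sensor that binds SEC31A, fell by 0.46. XBP1, a transcription factor of the unfolded protein response that induces many secretory genes, fell by 0.48 ± 0.11 (adjusted p = 0.0345). No other probe set of MAGT1, PDCD6 or XBP1 passed. CREB3L2, known from mice to activate Sec23a in chondrocytes, measured 11.92 to 12.15 in proliferative and 11.88, 11.70, 10.57 and 10.84 in hypertrophic cells. Its groups did not overlap, hypertrophic arrays 3 and 4 were about 1 unit below arrays 1 and 2, and the difference of -0.80 ± 0.28 did not pass (adjusted p = 0.115). CREB3L3 and ATF6B, also in the list, had differences of -0.23 ± 0.10 and -0.27 ± 0.21 that did not pass. Any part of these genes in the fall of SEC23A was not tested.

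The 3 genes that rose were BCAP29, USE1 and LMAN1L. BCAP29, an ER membrane protein of a family that handles export of membrane proteins, measured 7.94, 7.47, 7.86 and 7.71 in proliferative and 8.29, 8.70, 8.55 and 8.62 in hypertrophic cells. All hypertrophic arrays lay above the proliferative ones, and BCAP29 rose by 0.80 ± 0.14 (adjusted p = 0.0102, and 0.0819 with arrays 3 and 4 averaged). USE1, a SNARE for carriers returning to the ER, rose by 0.71 ± 0.18 (adjusted p = 0.0463). LMAN1L, a relative of the cargo lectin LMAN1, had probe sets that disagreed, 1 higher by 0.50 ± 0.11 (adjusted p = 0.0218) and the other lower, with a difference of -0.92 ± 0.22 (adjusted p = 0.0372).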

How the data were processed

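The deposited table holds log2 signals that the authors made with RMA, per the submitters' processing notes; the RMA version is not given in the sources used here. RMA corrects background, quantile-normalises arrays together and summarises probe sets, which compresses differences of dim ones. Values run from 2.52 to 14.7. Precision is limited by the number of arrays (8), which have no read depth.

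The 96 control probe sets were left out, which left 38439. Through the platform annotation, 27168 probe sets had 1 symbol. The members, role groups, pathway list and markers were chosen with earlier results of these data known. The background level is the highest over arrays of the 95th percentile of 744 viral and reporter probe sets. Groups follow the sample titles. The test was limma's moderated linear model (version 3.58.1, R 4.3.3), two-sided, and p-values were adjusted by Benjamini-Hochberg over these 38439 probe sets. The fit was tested on simulated data with 200 changed probe sets. Marker sums add linear signals.

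Named were all genes past the test and, in each role, the 2 others with the smallest p and the brightest. Further members are named to describe a complex. The pathway genes CREB3L2, CREB3L3 and ATF6B are named although they did not pass. Many representative probe sets carry a suffix that marks a match to more than one transcript (SEC31A, SAR1B, SRP68, COG3, GOLGA2, SEC22A, ARF1 and TMED2 among those past the test), so signal from related transcripts cannot be told apart there. Sequences and promoter motifs were not analysed here.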

Additional observations from a re-analysis of the deposited data

Results flagged for a closer look

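In 194 groups of 4 arrays examined, 1 array stood apart from the other 3 in 5 cases, by the gap to the nearest other array relative to the whole range (Dixon's 95% limit for 4 arrays). With 4 independent values per group, chance would flag about 1 in 20 groups, or 9.7. Arrays 3 and 4 of a group are nearly identical, so that number does not apply directly here. COG3, which fell, measured 5.32 on hypertrophic array 4 against 5.66 to 5.67 on the others, and it passed the test without that array as well. ARF6 measured 11.52 on proliferative array 1 against 11.05 to 11.12. GOLGA1 measured 7.09 on hypertrophic array 2 against 6.46 to 6.56. COG2 measured 7.18 on proliferative array 2 against 7.57 to 7.61. TRAPPC6A measured 2.97 on proliferative array 4 against 3.26 to 3.29, all under the background level.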

How the results depend on the processing

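No member passed as higher under any alternative. Of 1437 single-gene values under alternatives, 1244 kept direction and side of the threshold, 68 lost and 67 gained a call, and 58 turned the sign of the estimate. The turns fell in 28 members, none of which passed on 8 arrays, and none of the turned values passed. The 12 lower members became 41 with array weights (lowest 0.27 for hypertrophic array 1, highest 1.89 for hypertrophic array 4), 24 with centring on 63 ribosomal protein genes, 20 with arrays 1 and 2 against 3 and 4 as a block, 2 with arrays 3 and 4 averaged and 0 with arrays 1 and 2 alone, and leaving out 1 array gave 4 to 24. The median difference of -0.33 became -0.46, -0.49 and -0.14 with array weights, ribosomal centring and arrays 1 and 2 alone. Ribosomal centring moved the median of all genes to -0.17. The 14 lower pathway genes became 32, 23, 22, 4 and 1 in the same order of alternatives, and 5 to 19 with 1 array left out. The 3 higher ones became 1 with ribosomal centring, 0 with arrays 3 and 4 averaged, 0 with arrays 1 and 2 alone, and 1 to 3 with 1 array left out. The share of all genes passing was computed only for all 8 arrays, for arrays 3 and 4 averaged and, for lower genes, without hypertrophic array 1. Larger or smaller counts under the other settings therefore cannot be read as results about the members or pathway genes. Array weights were highest for the near-copies, arrays 3 and 4 of each group (1.67 to 1.89). With the replicate block, 10 members and 13 pathway genes were lower and 2 pathway genes higher; the deviations of same-numbered arrays correlated at 0.15, 0.01, 0.22 and -0.01, and 1 of 8 arrays correlated best with its own number. A filter on dim probe sets, median centring, a variance trend, updated symbols and the mean of a gene's probe sets left 11 to 14 lower members. The causes were not tested. Signal over background limits TRAPPC3L, TRAPPC6A, SEC22C and TRAPPC9.

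The turned estimates were as follows. With arrays 1 and 2 alone, TMED3 stood at 0.060, SEC61A1 at 0.24, SSR3 at 0.13, SSR2 at 0.021, SSR1 at 0.0020, SEC22B at 0.17, SAR1A at 0.17, TMED8 at 0.016, GOLGA7 at 0.12, COG6 at 0.060, SEC31B at 0.035, SRP72 at 0.17, TRAPPC11 at 0.14, COG2 at 0.077 and TRAPPC10 at -0.087. With ribosomal centring, TRAPPC3L stood at -0.16, TMED10 at -0.15, MIA2 at -0.10, TRAPPC6A at -0.091, COG4 at -0.085, TRAPPC2L at -0.058 and SEC61B at -0.0076. With array weights, SEC24B stood at 0.077, SEC24C at 0.031, SEC62 at 0.12, TRAPPC3L at -0.0057, TMED10 at -0.082 and COG4 at -0.18. With the mean of a gene's probe sets, SEC22C stood at 0.11, MIA2 at -0.049, SEC61B at -0.062 and TRAPPC10 at -0.21. TRAPPC3L stood at -0.0062 with median centring and TRAPPC11 at 0.0008 with arrays 3 and 4 averaged. With 1 array left out, TMED8 ran from -0.45 to 0.0084, TMED10 from -0.12 to 0.11, SEC24C from -0.13 to 0.026, MIA2 from -0.029 to 0.14, SRP9 from -0.50 to 0.025, SRP72 from -0.24 to 0.015, SEC62 from -0.080 to 0.095, TRAPPC13 from -0.34 to 0.068, TRAPPC11 from -0.16 to 0.046, TRAPPC3L from -0.11 to 0.056, TRAPPC6A from -0.0057 to 0.10 and COG4 from -0.088 to 0.22.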
